A study of Schizosaccharomyces pombe with 6 samples.

Results

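The hexose transporter family of fission yeast, ght1 to ght8, was described from sequenced RNA of vegetative Schizosaccharomyces pombe cells. The members were taken by gene name from the deposited table, which gave 8 of the 7001 listed features. The study compared a wild-type strain (WT), a strain lacking mug174, the gene of the proposed fission yeast counterpart of the Cajal body protein Coilin (mug174Δ), and a strain lacking red1, the gene of a component of the MTREC complex that directs nuclear RNAs to degradation (red1Δ). There were 2 libraries of each strain. All strains grew untreated at 32 °C in the rich medium YES with 3% glucose, and the deletions were made by PCR-based gene targeting. The study describes its WT and mug174Δ sequencing as independent experiments, and the labels only number the libraries. No source used here states how many clones stand behind a strain or says this of red1Δ, so part of the spread that the p-values measure may be technical.

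The 6 libraries held between 16565908 and 18627129 reads in listed features, and the deleted genes had at most 1 read (mug174 in mug174Δ) and 2 reads (red1 in red1Δ). Levels are RPKM, reads per kilobase of coding length scaled to the library's counted reads, so levels of different genes can be set side by side. A single read in 1000 bases was worth between 0.0537 and 0.0604 RPKM. RPKM is a share of the counted RNA, and in whole cultures a smaller fraction of cells using a gene cannot be told apart from less RNA per cell. Taken over every tested feature, the median log2 fold change was 0.18 for mug174Δ against WT, 0.35 for red1Δ against WT and 0.18 for red1Δ against mug174Δ. Scaling every library by the median of its feature-wise ratios to the geometric mean (median ratio scaling) brought these medians to 0.01, -0.00 and -0.01. Fold changes are therefore read against these medians.

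Hexose transporters of this family are membrane proteins of the major facilitator superfamily that bring sugars into the cell together with protons. Ght5 is the high-affinity glucose transporter that fission yeast needs for growth on little glucose. Its gene is held down in high glucose by the repressor Scr1 and is released through the AMP-activated kinase Ssp2, and its protein is kept at the cell surface with the help of the TORC2 kinase complex. Ght1 and Ght2 also carry glucose, Ght6 was found to prefer fructose in budding yeast cells made to express it, and Ght3 carries gluconate.

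The 8 genes fell in several places of the genome (coordinates of the deposited table, which match RefSeq ASM294v3 at the start and end of all 8 coding regions). The neighbours of a stretch on chromosome III, ght6 (SPCC1235.13, 204733 to 206340), ght5 (SPCC1235.14, 212313 to 213953), ght8 (SPCC548.06c, 226757 to 228400) and ght1 (SPCC548.07c, 232834 to 234507), spanned 29775 bases. Near chromosome ends lay ght7 (SPBC1348.14c, chromosome II, 38587 to 40143) and ght3 (SPAC1F8.01, chromosome I, 82936 to 84603), and ght4 (SPBC1683.08, chromosome II, 157555 to 159228) was farther in. The remaining member, ght2 (SPBC4B4.08, chromosome II, 3427572 to 3429167), was 1110637 bases from the nearest end. The coding length equalled the genomic span in all 8, so no intron interrupts the counted part.

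The proteins, translated from RefSeq, shared between 55.9% and 91.6% of aligned residues over the 28 pairs (median 68.2%). The closest pair was ght5 and ght8 at 91.6%, followed by ght3 and ght4 at 86.9%. The likeness extends to the DNA, and the longest stretch common to any pair was a run of 248 bases in ght5 (III:213319-213566, plus strand) and ght8 (III:227147-227394, minus strand). It is printed because these are the most abundant members and reads inside it could come from either gene:
ght5 and ght8: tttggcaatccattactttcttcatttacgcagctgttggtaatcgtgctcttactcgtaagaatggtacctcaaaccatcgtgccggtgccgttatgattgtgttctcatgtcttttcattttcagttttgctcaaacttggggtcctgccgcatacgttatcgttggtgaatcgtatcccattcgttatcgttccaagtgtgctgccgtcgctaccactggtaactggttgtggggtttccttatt
Of the 50-base words of ght8, 38.2% also occur elsewhere in the genome, and 37.4% of those of ght5. The shares were 13.1% for ght3, 13.0% for ght4, 9.48% for ght1 and 2.5% for ght6, while ght2 and ght7 shared none. No source used here says how reads that fit several places were treated, so the division of reads between ght5 and ght8, and between ght3 and ght4, is uncertain.

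**Figure D1:**
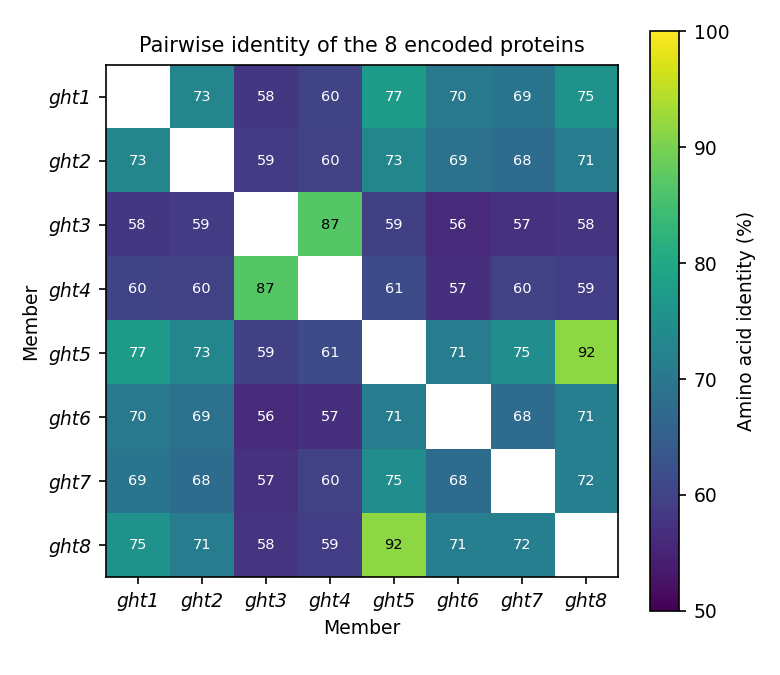
Amino acid identity in percent for each pair of the 8 proteins, with the members on both axes and the value written in each cell. The ght5 and ght8 cell (91.6%) and the ght3 and ght4 cell (86.9%) are the highest of the 28 pairs, whose median is 68.2%.

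The repressor Scr1 is known to bind GC-rich sites, so the 1000 bases before each start codon were searched on both strands for the letters CTGGGG, for GTGGGG, for CCGGGG and for GCGGGG, here called Scr1-type. A match stood before 7 of the 8 members, with 3 before ght8, 1 before each of ght1, ght2, ght3, ght4, ght5 and ght7, and none before ght6. Of 5145 such upstream regions in the genome, 19.6% held a match and 0.603% held 3 or more. The stretches are shown on the strand of the gene with the match in capitals, so a match on the other strand reads as its complement. They are printed because they carry the only feature searched that most members share:
ght8 (III:228894-228942): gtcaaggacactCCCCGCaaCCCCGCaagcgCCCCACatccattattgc
ght5 (III:211548-211577): tcatacacttaaCCCCGCatccaaggtatg
ght1 (III:235251-235280): aatttgcagtatCCCCGCatttggttgagt
ght4 (II:156573-156602): tacggagatcgtCCCCGCggaaaagtcttt
ght2 (II:3426755-3426784): aatagtgtctttCCCCAGtatatgcatcag
ght3 (I:82292-82321): agctgatactggGTGGGGcaaagtttataa
ght7 (II:40630-40659): ccaagttggaccCTGGGGttataaagcggc
The letters GCGGGG stood before ght1, ght4, ght5 and ght8, 2 times before ght8. The motif of the zinc finger activator Rst2, CCCCTC, stood before ght3 and ght5 (7.5% of upstream regions), and that of the stress factor Atf1, TGACGT, before ght2, ght3, ght4 and ght7 (14.8%). The annotated ght4 mRNA begins 1783 bases before its start codon, so the Scr1-type and Atf1 matches of ght4 lie within that mRNA. For ght3, ght5, ght6 and ght7 the annotated mRNA has no base before the start codon. A match is a description of the letters and no evidence of binding.

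The family signal rested on a few members. In all 6 libraries ght8 was highest, ght5 next and ght2 after it, and ght4 and ght1 followed. In WT the level of ght8 was 707 and 742 RPKM, which made it the 234th most abundant protein-coding gene by mean level. The level of ght5 in WT was 207 and 265 RPKM, and that of ght2 was 52.6 and 54.1 RPKM. Together ght5 and ght8 carried a mean of 92.3% of the summed ght RPKM in WT, 91.5% in mug174Δ and 90.3% in red1Δ, and with ght2 the share was between 97.3% and 97.8% in every library. The ranges of neighbours in the order from ght8 down to ght3 did not overlap in any strain, although in red1Δ the libraries of ght5 lay farther apart than ght5 and ght2 did.

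**Figure D2:**
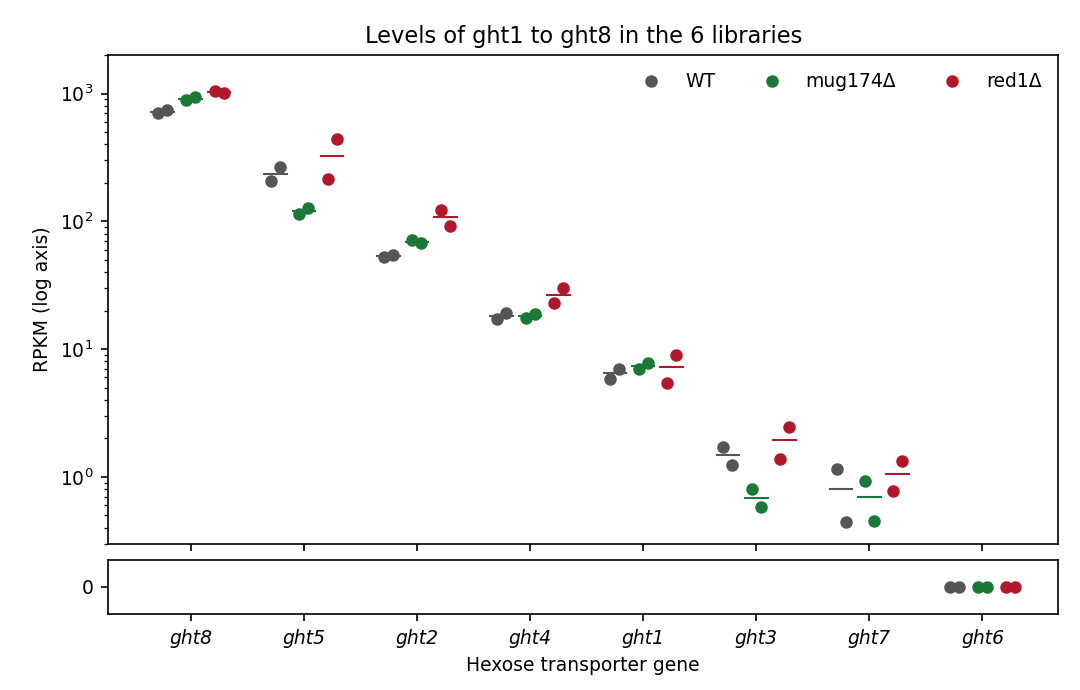
RPKM on a log axis for each of the 8 members, ordered by level, with 2 points per strain for the libraries and a bar at their mean. Values run from ght8, between 707 and 1043 RPKM, down to ght3 and ght7 near 1 RPKM, and ght6 is shown at 0 in a separate strip.

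Lower down, ght4 had 17.1 and 19.3 RPKM in WT and ght1 5.87 and 7.02 RPKM. The gluconate transporter gene ght3 had 1.70 and 1.24 RPKM in WT, from 52 and 36 reads, and ght7 had 1.16 and 0.444 RPKM, from 33 and 12 reads. The ranges of ght3 and ght7 overlapped in mug174Δ, where ght7 was above ght3 in replicate 1, and did not overlap in WT and red1Δ. Only 4 libraries held ght3 and 2 held ght7 at 1 RPKM or more.

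The eighth member, ght6, was listed at 0 in every library, and this cannot be read as absence of its RNA. The whole of ght6 lies under ght6-antisense-1 (SPNCRNA.1118, III:204633-206912), an RNA listed on the other strand. Across the table, 436 of 439 features wholly covered by features of the opposite strand were at 0 in all libraries (99.3%), against 2 of 4295 protein-coding features without an overlap (0.0466%). Reads in such overlaps were, for nearly all of these features, not counted, and ght6 has no base outside one. The antisense RNA had between 99 and 125 reads in its 672 free bases, of which 377 lie in the annotated ght6 mRNA beyond its stop codon, so their strand of origin cannot be told apart. For WT it stood at 2.37 and 2.60 RPKM, for mug174Δ at 3.28 and 2.83 RPKM and for red1Δ at 3.17 and 2.92 RPKM, with no call in any comparison. The same counting touched ght4, of which 762 bases (45.5%) lie under SPNCRNA.1319, and 43 bases of ght1. Over its 912 free bases the level of ght4 would be 31.4 and 35.5 RPKM for WT, 32.0 and 34.8 RPKM for mug174Δ, and 41.8 and 54.9 RPKM for red1Δ. That setting was chosen after the data were seen and left ght4 in the same place in the order.

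In mug174Δ ght8 rose in the main test, while ght5 was lower in both libraries without passing it. The level of ght8 was 892 and 938 RPKM in mug174Δ, against 707 and 742 RPKM in WT, and 915 ± 32.9 against 724 ± 24.6 RPKM as mean and SD (n = 2). It rose by 0.34 on the log2 scale, with a standard error of 0.09 (adjusted p = 0.043 in limma), which is 0.16 above the median of all features. The level of ght5 was 113 and 128 RPKM in mug174Δ, against 207 and 265 RPKM in WT, and both mutant libraries lay under both WT libraries. The log2 fold change of ght5 was -0.95 (standard error 0.32, 95% interval -1.75 to -0.16, adjusted p = 0.077), which did not pass the test. Read against the median of all features it was -1.13. The ratio of ght8 to ght5 was 3.41 and 2.80 in WT and 7.87 and 7.32 in mug174Δ, and the share of ght8 in the family signal was 69.7% in WT and 80.8% in mug174Δ.

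**Figure D3:**
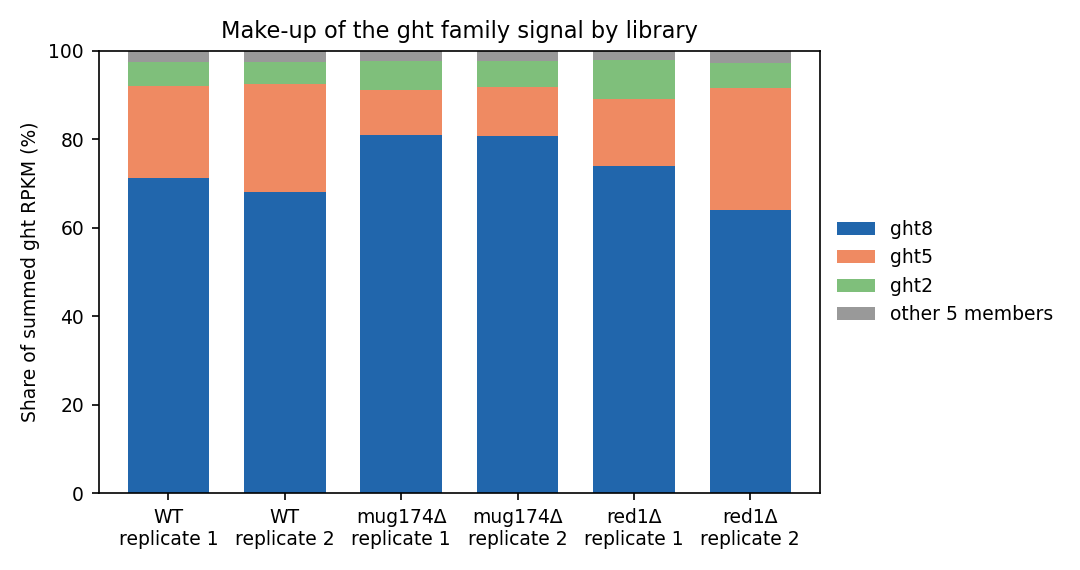
Share of the summed RPKM of ght1 to ght8, in percent, taken by ght8, ght5, ght2 and the other 5 members in each library. The ght5 share was 10.3% and 11% in the mug174Δ libraries, under the 15.3% to 27.6% of the other 4 libraries.

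With 1 of 7 tested members that rose and none that fell in mug174Δ, the counts stood against 19.8% of the 5949 tested features that rose and 5.53% that fell. At an unadjusted p under 0.05, 1 member had a negative log2 fold change, ght5. With voom weights on the whole reads ght5 was called as fallen (adjusted p = 0.0496) and ght8 was not called (0.064). With the replicate number as a block both were called (adjusted p = 0.026 for ght5 and 0.048 for ght8). With totals of protein-coding reads neither was (0.076 and 0.054). With median ratio scaling the ght8 call was lost (log2 fold change 0.16, adjusted p = 0.36) and ght5 was called (log2 fold change -1.13, adjusted p = 0.042). When a single library was left out, the adjusted p of ght8 was 0.217 and 0.171 (WT replicates 1 and 2) and 0.174 and 0.225 (mug174Δ replicates 1 and 2). Over all tested features the number that rose was 47, 70, 14 and 41 in those fits, against 1179 with all libraries. Without red1Δ replicate 1 or replicate 2, ght5 was called (adjusted p = 0.0085 and 0.0083), as those libraries enter the shared estimate of spread.

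No other member passed the test in mug174Δ. The level of ght2 was 71.0 and 67.2 RPKM in mug174Δ, above both WT libraries, at 0.37 on the log2 scale (standard error 0.14, adjusted p = 0.099). It was called as risen with only the 4 libraries compared (adjusted p = 0.0154) and without red1Δ replicate 1 or replicate 2 (adjusted p = 0.0152 and 0.0147). The level of ght3 was 0.796 and 0.579 RPKM in mug174Δ, from 22 and 18 reads, below both WT libraries, at -0.73 on the log2 scale (standard error 0.33, adjusted p = 0.148). The groups overlapped for ght4, at 17.5 and 19.0 RPKM, for ght1, at 7.0 and 7.83 RPKM against 5.87 and 7.02, and for ght7, at 0.930 and 0.448 RPKM. Their log2 fold changes were -0.00, 0.19 and -0.10, with intervals of -0.38 to 0.38, -0.43 to 0.81 and -1.15 to 0.94.

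In red1Δ ght2, ght8 and ght4 rose. The level of ght2 was 123 and 92.3 RPKM in red1Δ, against 52.6 and 54.1 RPKM in WT, and both red1Δ libraries were above all others. It rose by 0.99 on the log2 scale (standard error 0.14, adjusted p = 0.0038), which is 0.64 above the median of all features. It kept its call with median ratio scaling (log2 fold change 0.63, adjusted p = 0.030) and without each library in turn (adjusted p from 0.0024 to 0.029). The level of ght8 was 1043 and 1018 RPKM in red1Δ, against 707 and 742 RPKM in WT, a rise of 0.51 (standard error 0.09, adjusted p = 0.0068). The level of ght4 was 22.8 and 29.9 RPKM in red1Δ, above the 17.1 and 19.3 RPKM of WT, a rise of 0.51 (standard error 0.16, adjusted p = 0.035). These last rises were 0.16 above the median of all features, and with median ratio scaling neither was called (0.15 for both, adjusted p = 0.36 for ght8 and 0.40 for ght4).

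Thus 3 of 7 tested members rose in red1Δ and none fell, in limma and with voom weights, against 48.4% and 7.33% of all tested features, and no member had a negative log2 fold change at an unadjusted p under 0.05. The share that rose is near that of all features. Without WT replicate 1 the adjusted p of ght8 was 0.0566. That of ght4 was 0.156 and 0.0829 when WT replicate 1 or 2 was left out, 0.0674 and 0.0679 when mug174Δ replicate 1 or 2 was, and 0.104 when red1Δ replicate 2 was.

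The red1Δ libraries differed from each other in ght5, at 215 and 439 RPKM, and replicate 1 lay between the WT values of 207 and 265 RPKM. The log2 fold change of ght5 was 0.39 (standard error 0.32, 95% interval -0.40 to 1.18, adjusted p = 0.33). It was 0.90 (adjusted p = 0.0084) without red1Δ replicate 1 and -0.12 (adjusted p = 0.57) without red1Δ replicate 2. The same libraries spread in ght1, at 5.42 and 8.98 RPKM, in ght3, at 1.39 and 2.46 RPKM, and in ght7, at 0.779 and 1.34 RPKM, with replicate 2 higher for each. The log2 fold changes of these members were 0.11, 0.27 and 0.29 and none passed the test. In ght2 and ght8 replicate 1 was higher. Across the 6 libraries ght5 varied most on the log2 scale (SD 0.71) and ght8 least of the counted members (SD 0.23).

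**Figure D4:**
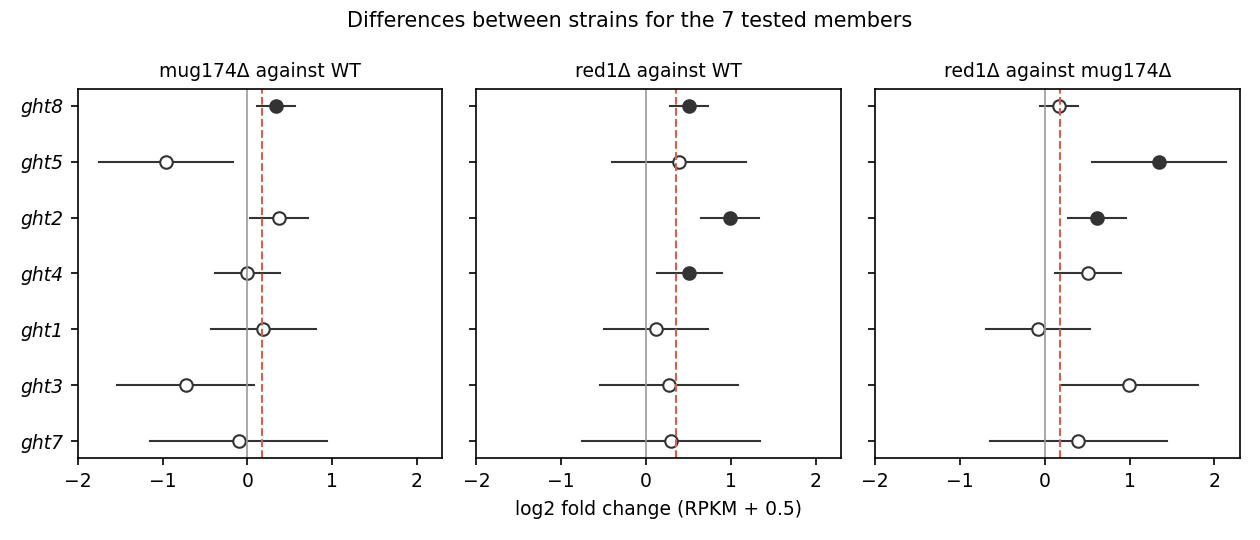
Log2 fold change of RPKM + 0.5 for the 7 tested members in the 3 comparisons, with 95% intervals, filled points for an adjusted p under 0.05 and a dashed line at the median of all tested features. The filled points are ght8 in mug174Δ, ght8, ght2 and ght4 in red1Δ, and ght5 and ght2 between the deletions.

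Set directly against each other, the deletions differed in ght5 and ght2. The level of ght5 was 215 and 439 RPKM in red1Δ and 113 and 128 RPKM in mug174Δ, a difference of 1.35 on the log2 scale (standard error 0.32, adjusted p = 0.039). The difference in ght2 was 0.62 (standard error 0.14, adjusted p = 0.034). For ght3 it was 1.0 (adjusted p = 0.083), for ght4 0.51 (adjusted p = 0.070) and for ght8 0.17 (95% interval -0.05 to 0.39, adjusted p = 0.21). So 2 of 7 tested members were higher in red1Δ and none lower in limma or with voom weights, none also at an unadjusted p under 0.05, against 16.1% and 3.28% of all tested features. With median ratio scaling ght5 remained called (adjusted p = 0.0487) and ght2 did not (adjusted p = 0.13). For ght5 the adjusted p was 0.0735 and 0.0728 when WT replicate 1 or 2 was left out and 0.185 and 0.160 when mug174Δ replicate 1 or 2 was, and for ght2 it was 0.0720, 0.0721, 0.143 and 0.172 in the same order.

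Features beside the members were taken by position. Of 19, 16 were tested. In mug174Δ 3 rose, beside 19.8% of all tested features, and none fell in limma or with voom weights (1 negative at an unadjusted p under 0.05, and 1 that fell with median ratio scaling). In red1Δ 7 rose, a share near the 48.4% of all tested features, and none fell in limma or with voom weights (none negative at an unadjusted p under 0.05, and 2 that fell with median ratio scaling). Between the deletions 1 was higher and 2 were lower in red1Δ, beside 16.1% and 3.28% of all tested features. The feature next upstream of ght5 moved the other way from it. SPCC1235.18, an uncharacterized protein gene on the same strand with its end 1024 bases before the ght5 start codon, stood at 11.8 and 9.01 RPKM in WT. It had 24.3 and 22.1 RPKM in mug174Δ and 10.6 and 6.75 RPKM in red1Δ. It rose in mug174Δ (log2 fold change 1.13, standard error 0.24, adjusted p = 0.023) and was lower in red1Δ than in mug174Δ (-1.40, adjusted p = 0.017). These calls held with median ratio scaling (adjusted p = 0.045 and 0.014). Ranked over the 6 libraries, the order of ght5 from lowest to highest was the order of SPCC1235.18 from highest to lowest, a pattern noticed after its values were seen and given without a test. The adjusted p of the rise was 0.071 and 0.128 when WT replicate 1 or 2 was left out and 0.143 and 0.108 when mug174Δ replicate 1 or 2 was, and without either mug174Δ library that of the difference between the deletions was 0.111 and 0.107.

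**Figure D5:**
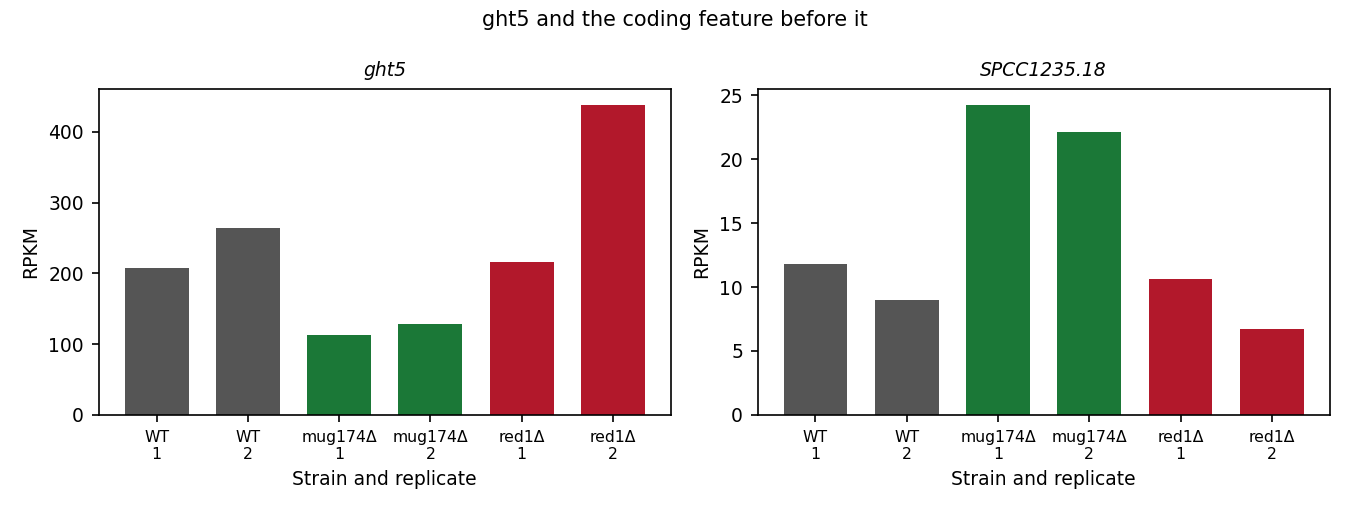
RPKM of ght5 and of SPCC1235.18 in the 6 libraries, each panel with its own axis from 0 and bars coloured by strain. The mug174Δ libraries are lowest for ght5 (113 and 128) and highest for SPCC1235.18 (24.3 and 22.1), and red1Δ replicate 2 is highest for ght5 (439) and lowest for SPCC1235.18 (6.75).

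Downstream of ght5, the diacylglycerol acyltransferase gene dga1 rose in red1Δ by 0.50 (adjusted p = 0.014, but 0.31 with median ratio scaling). Beyond the 3′ end of ght8, SPNCRNA.460 (III:226130-226215), a non-coding RNA on the other strand 120 bases past the annotated ght8 mRNA, had no read in either WT library, 5 and 12 reads in mug174Δ and 7 and 2 reads in red1Δ. It was called as risen in both (adjusted p = 0.013 and 0.011), and since WT is at 0 no fold is given. Beside ght4, the antisense SPNCRNA.1318 rose in red1Δ, from 3.65 and 4.05 RPKM in WT to 7.73 and 10.3 (log2 fold change 1.12, adjusted p = 0.0062), and in every fit without a library. SPNCRNA.1318 (II:154521-156642) reaches into the annotated ght4 mRNA, which begins at 155772. Other listed features cover 55.1% of it, where reads may not have been counted. The ferric reductase gene frp1, downstream of ght4, rose by 1.06 in red1Δ (adjusted p = 0.015). The transcription factor gene SPBC1348.12 by ght7 rose by 1.29 in red1Δ (adjusted p = 0.020), where red1Δ replicate 2 had 25.0 and replicate 1 13.0 RPKM. By ght6, mug146 rose in mug174Δ and red1Δ, by 0.80 and 0.89 (adjusted p = 0.045 and 0.018), and SPCC1235.17 was lower in red1Δ than in mug174Δ by 0.90 (adjusted p = 0.041). By ght2, the U1 snRNP gene usp102 rose by 0.30 in red1Δ (adjusted p = 0.019), under the median of all features. With median ratio scaling SPNCRNA.1318, SPNCRNA.460 and SPBC1348.12 were still called in red1Δ (adjusted p = 0.016, 0.018 and 0.048), and frp1, mug146 and usp102 were not (0.058, 0.064 and 0.60). In mug174Δ that scaling kept the call of SPNCRNA.460 (adjusted p = 0.013) and lost that of mug146 (0.063). The call of SPCC1235.17 was lost in each fit without a library. When WT replicate 1, WT replicate 2 or red1Δ replicate 2 was left out, 4, 2 and 4 of these features rose in red1Δ. In mug174Δ none of them, SPNCRNA.460 and mug146 included, was called as risen in limma when any single WT or mug174Δ library was left out.

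Genes that act on these transporters were read from lists written from general knowledge. Over all tested features 19.8% rose and 5.53% fell in mug174Δ, and 7.33% fell in red1Δ. In the glucose sensing and cAMP-PKA pathway, through which high glucose represses starvation genes, 1 of 13 tested genes rose and 2 fell in mug174Δ. Those that fell were git3, the glucose receptor, from 34.7 and 33.8 RPKM in WT to 22.8 and 22.3 (log2 fold change -0.59, adjusted p = 0.011), and gpa2, its G protein subunit, from 63.7 and 62.9 to 44.1 and 47.7 RPKM (-0.46, adjusted p = 0.016). Both also fell with median ratio scaling (adjusted p = 0.0076 and 0.011), and git7 rose by 0.50 (adjusted p = 0.011). In red1Δ, where 48.4% of all tested features rose, 10 of the 13 rose and 1 fell. The smallest p-values of the rises were those of the adenylate cyclase gene cyr1 (0.71, adjusted p = 0.0032), git7 (0.66), git1 (0.62) and sck2 (0.78). Also risen were pka1 (0.63), cgs1 (0.78), cgs2 (0.50), git5 (0.63), rst2 (0.50) and sck1 (0.49). The fall was in git3 (-0.26, adjusted p = 0.049). With median ratio scaling 5 rose (cyr1, git7, sck2, pka1 and cgs1) and 2 fell (git3 and gpa2). The list's unscaled median was 0.62 beside 0.35 for all features. Between the deletions 7 were higher in red1Δ, beside 16.1% of all tested features, and 4 with median ratio scaling. None of these calls held when either mug174Δ library was left out.

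The counts of the other lists are likewise to be read beside the shares of all tested features that rose, 19.8% in mug174Δ and 48.4% in red1Δ. The shares that fell were 5.53% and 7.33%. Of 11 tested genes of glucose repression and the AMP-activated kinase, none rose in mug174Δ in limma or with voom weights (1 positive at an unadjusted p under 0.05). There cbs2 fell (-0.36, adjusted p = 0.044). In red1Δ 4 rose and 1 fell. Those that rose were ssp2, the kinase (0.40), its subunit amk2 (0.44), rst2 (0.50) and sds23 (0.58). The corepressor tup12 fell by 0.39 on the log2 scale, and cbs2 was at -0.27 in red1Δ without a call (adjusted p = 0.054). Under median ratio scaling none of the 11 rose in red1Δ (ssp2 0.04, amk2 0.08, rst2 0.14 and sds23 0.22, adjusted p = 0.79, 0.54, 0.38 and 0.20). The 3 that fell were tup12 (-0.75), cbs2 (-0.63) and ppk9 (-0.53), at adjusted p = 0.0048, 0.0043 and 0.0067. The list's unscaled median of 0.14 lay under the 0.35 of all features. Of 8 glucose-repressed genes for other carbon sources 6 were tested, since fbp1 and gut2 lie wholly under opposite-strand features. In mug174Δ the alpha-glucosidase gene agl1 rose (0.97, adjusted p = 0.038), and in red1Δ agl1 (1.27), inv1 (1.14), which encodes invertase, and mal1 (0.63) rose. After that scaling agl1 stayed called in red1Δ (adjusted p = 0.020), and inv1 and mal1 did not (0.12 and 0.17). As with ght5, inv1 differed between the red1Δ libraries, at 58.6 and 144 RPKM. The rest of this list was not called in either deletion with all libraries fitted. Against WT, dak2 was at -0.73 (mug174Δ) and -1.19 (red1Δ), gld1 at -0.88 and -0.49, and dak1 at 0.23 and 0.13. Nor were inv1 (0.58) and mal1 (-0.02) called for mug174Δ. The median of the 6 tested genes was 0.11 for mug174Δ, beside 0.18 for all features, and 0.38 for red1Δ, beside 0.35. Of 12 tested genes for surface localization of Ght5 1 rose in mug174Δ (gad8, 0.43) and 6 in red1Δ, with aly1 at 0.57, gad8 at 0.60, ksg1 at 0.54 and ste20 at 0.45, and none was called with median ratio scaling.

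Among 7 genes that take up the first steps of hexose and gluconate use, the phosphogluconate dehydrogenase gene gnd1 fell in mug174Δ, from 1485 and 1438 RPKM in WT to 662 and 713 RPKM (log2 fold change -1.09, standard error 0.10, adjusted p = 0.0048), and by 0.55 in red1Δ (adjusted p = 0.0072). The gluconate kinase gene idn1 fell by 0.38 on the log2 scale in mug174Δ (adjusted p = 0.046). In the same list pgi1 was at 0.40 (adjusted p = 0.054) and zwf1 at -0.05 in mug174Δ, neither called. Gluconate, which Ght3 carries, is used through the enzymes of gnd1 and idn1. The ght3 gene passed the test in neither deletion, and a link between it and these falls was not tested. Of 3 other sugar and polyol transporter genes, none passed the test in mug174Δ in limma or with voom weights, also at an unadjusted p under 0.05, and sut1 rose in red1Δ (0.62, adjusted p = 0.033, but 0.23 with median ratio scaling). Of 7 stress response genes 2 rose in mug174Δ and 6 in red1Δ, led by the metallothionein gene zym1 (1.86 and 2.59). With median ratio scaling 1 rose in mug174Δ and 4 in red1Δ, zym1 in both, and gpd1 was called in neither (adjusted p = 0.14 and 0.20). Of 8 genes of nitrogen starvation and mating 2 rose in mug174Δ, mam2 (0.98) and fus1 (0.83). In red1Δ 4 rose, mam2 (0.95), fus1 (1.33), isp6 (1.35) and mam1 (0.53). In that list isp4 was lower in mug174Δ and red1Δ (-0.81 and -1.03) without passing the test. With median ratio scaling isp4 was called as fallen in red1Δ (-1.39, adjusted p = 0.029), while 3 rose. In red1Δ mei2 and ste11 were at -0.35 and -0.06, neither called. Without any single WT or mug174Δ library the calls in mug174Δ of all these lists were lost, except that 1 first-step gene, gnd1, stayed called without WT replicate 2 (adjusted p = 0.048). In red1Δ the genes that rose without WT replicate 1 and without WT replicate 2 numbered 8 and 8 for cAMP-PKA, 0 and 1 for glucose repression, 0 and 1 for other carbon sources, 5 and 3 for surface localization, 6 and 3 for stress and 2 and 2 for mating. The fall of git3 in red1Δ was lost in each fit without a library, that of gnd1 without WT replicate 1 (adjusted p = 0.053), that of tup12 without WT replicate 1 and without WT replicate 2 (adjusted p up to 0.108), and the rise of sut1 in each except without red1Δ replicate 1.

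The features whose levels ran most like ght8 were sec39, orc3, hst4, mad3 and SPBC660.08, with root mean square differences between 0.022 and 0.031 on the log2 scale over the 6 libraries and 4750 protein-coding features compared. Those most like ght5 were SPAC186.03, SPAC806.04c, SPBC1683.02, SPBPB21E7.09 and gmh1, with differences between 0.18 and 0.23. SPAC186.03 and SPBPB21E7.09 both encode an L-asparaginase. The WT libraries held SPAC186.03 at 12 and 15.3 RPKM, those of mug174Δ at 5.85 and 7.78 RPKM and those of red1Δ at 9.98 and 19.5 RPKM. This is a description of likeness in 6 values that share libraries.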

How the data were processed

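RNA sequencing of 6 libraries was analysed. The authors' deposited table gives RPKM per listed feature, reads divided by coding length and by the total of listed features, without scaling between libraries. The paper names HISAT2, ASM294v2 and poly(dT) enrichment, whereas STAR 2.5.3a and StringTie 1.3.1c, with FastQC 0.11.6, come from the submitters' processing notes and an rRNA depletion kit from the labels, so the aligner and the RNA selection are uncertain. The authors' deposited fold changes and p-values were not used. Of further per-sample columns there were 0. Reads recovered from RPKM and length were whole for 100% of values (tolerance 0.01 reads). Depth covers counting error only.

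Strains were compared with limma 3.58.1 (R 4.3.3) on log2(RPKM + 0.5), which understates changes of low genes, fitting all 6 libraries with 1 mean per strain and a mean-variance trend. Tests were 2-sided, and p-values were adjusted (Benjamini-Hochberg) across the 5949 features that reached 1 RPKM in 2 or more libraries. A call is an adjusted p under 0.05. The fit was tested on simulated data. Where a library was left out, the lone library of a strain was assumed to vary like the others. The main test used RPKM, the deposited unit, and the recovered reads were tested only with voom weights. Sequences came from RefSeq ASM294v3, in which 99.5% of 5146 listed coding regions began with ATG and ended with a stop codon, and proteins were aligned with Biopython 1.88.

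The members and the gene lists were chosen with earlier results of these data known. Named were all members, the features next to, overlapping or (non-coding) within 1000 bases of them, up to 4 called genes with the smallest p per list and comparison described, and the 5 features most like the most abundant and the most variable member. Further genes of the lists were named to complete a count or to show those that fell or were not called. The wat1 and aly3 genes of a list had no match and were not analysed here, and git2, another name of cyr1, was counted once as cyr1. Alternatives were pseudocounts, filters, scalings, no trend, a replicate block, voom weights, fits of 4 libraries and each library left out. For the lists and the neighbouring features they were added after the data were seen.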

Additional observations from a re-analysis of the deposited data

How the results depend on the processing

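Settings are compared by the number of tested members called. In mug174Δ against WT, 1 rose and 0 fell. With median ratio scaling 0 rose and 1 fell, with totals of protein-coding reads 0 rose and 0 fell, with voom weights 0 rose and 1 fell, and with only the 4 libraries compared 2 rose and 1 fell. With the replicate number as a block 1 rose and 1 fell, the latter ght5 (log2 fold change -0.95, adjusted p = 0.026). Leaving out each library gave 0 to 2 that rose and 0 to 1 that fell. In red1Δ against WT, 3 rose, 1 with median ratio scaling, 2 with only the 4 libraries compared, where ght4 was lost (adjusted p = 0.067), 3 with the replicate block and 1 to 4 without each library. In red1Δ against mug174Δ, 2 rose, 1 with median ratio scaling, 0 without a trend, 0 with only the 4 libraries compared, 3 with the replicate block and 0 to 4 without each library. The main fit did not pair libraries by replicate number, and the labels do not say whether same-numbered libraries were made together. The correlation of their deviations was 0.19 for WT and mug174Δ, 0.23 for WT and red1Δ and 0.063 for mug174Δ and red1Δ. With the replicate block the standard error of ght5 was 0.20, against 0.32 in the main fit. Pseudocounts of 0.1 and 1 RPKM, no filter and a filter at 5 RPKM moved no count of calls. The sign changed for ght4 in mug174Δ with voom weights (0.0043), for ght1 and ght3 in red1Δ with median ratio scaling (-0.22 and -0.0098), and for ght8 between the deletions with that scaling (-0.016). None of these was called. Without a library the log2 fold change ran from -0.085 to 0.084 for ght4 and -0.51 to 0.30 for ght7 in mug174Δ, from -0.23 to 0.45 for ght1, -0.056 to 0.60 for ght3, -0.12 to 0.90 for ght5 and -0.11 to 0.70 for ght7 in red1Δ, and from -0.42 to 0.26 for ght1 between the deletions. The cause was not tested. Depth limits ght3 and ght7, which rest on 12 to 71 reads a library.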
